A study of Bos taurus with 4 samples.

Results

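The proteasome is the protease complex that degrades ubiquitin-tagged proteins, and its genes were examined here in bovine (Bos taurus) embryos injected with siRNAs against KDM5 histone demethylases or with control siRNAs. Members were chosen by gene symbol alone: all rows of the expression table whose symbol begins with PSMA, PSMB, PSMC, PSMD, PSME, PSMF or PSMG, and POMP, leaving out the interferon-inducible catalytic subunits PSMB8, PSMB9 and PSMB10. The rule took 45 of the 14517 transcripts in the table, each for a different gene. Of these, 43 encode a proteasome subunit, activator, inhibitor or assembly factor. PSMC3IP and PSME3IP1 carry the prefix by name only, since they encode proteins named for binding a proteasome protein, and they are given apart. PSMA8, PSME3 and PSMG4 have symbols that fit the rule, but no row was matched to them, so they were not analysed here.

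The core particle is a barrel of stacked rings. The outer alpha rings gate the entrance, and the inner beta rings hold the active sites, which lie in PSMB5 (chymotrypsin-like), PSMB6 (caspase-like) and PSMB7 (trypsin-like). A regulatory particle caps the barrel: its base contains the PSMC ATPases, which unfold substrates, and its lid contains PSMD14, which removes ubiquitin. In early embryos proteasomes take part in the clearance of maternal proteins as the embryo's own genome is switched on.

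Polyadenylated RNA had been sequenced from embryos in 2 groups of 2 libraries, at 3 days after insemination, when embryos had 8 to 16 cells. NC embryos had received negative control siRNAs as zygotes, and KDM5_KD embryos had received siRNAs against KDM5A, KDM5B and KDM5C, which encode demethylases of lysine 4 of histone H3. The number of embryos behind a library and whether replicates came from separate batches are not given in the labels, so p-values measure only the spread between these libraries. The title of KDM5_KD replicate 2 names a Kdm5 knockdown, whereas its treatment entry names KDM6 siRNAs. It was kept in the group of its title. KDM6A overlapped between the groups, at 7.63 and 11.3 FPKM in controls, compared with 7.90 and 9.29 FPKM in KDM5_KD, where the higher value belongs to replicate 2.

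Levels are in FPKM, which corrects fragment numbers for the length of the transcript and the size of the library, so that genes can be compared per length. The FPKM of a library summed to between 283347 and 322267. Read counts are unknown, but the spacing of low values put NC replicate 1 at 0.681 and the KDM5_KD libraries at 0.804 and 0.782 of the depth of NC replicate 2. KDM5A was at 28.4 and 27.1 FPKM in the control libraries, against 10.5 and 10.1 FPKM after knockdown. KDM5C was at 28.1 and 40.6 FPKM (NC) and at 15.1 and 17.8 FPKM (KDM5_KD), so both targets were lower in each knockdown library, including the one with the KDM6 entry. KDM5B was not analysed here. Among embryonic genes, POU5F1 lay between 56.2 and 63.2 FPKM. Oocyte and early embryo markers summed to 432 and 322 FPKM in the control libraries, against 525 and 549 FPKM after knockdown. Of their 9 transcripts, which include DPPA3 more than once, 4 were higher in both KDM5_KD libraries and 0 lower. Over all transcripts tested the shares were 35.1% and 15.6%. BMP15, an oocyte growth factor, was one of the 4, at 118 and 83.8 FPKM (NC) and at 149 and 172 FPKM (KDM5_KD). Of 4 genome activation markers, KLF4 was lower in both KDM5_KD libraries, as were 15.6% of all transcripts tested, and 0 were higher. KLF4 was at 606 and 517 FPKM in controls, compared with 507 and 422 FPKM in KDM5_KD. The part of these markers in the results was not tested. Markers of cumulus and granulosa cells, which surround the oocyte, differed between the groups. Of 14, 11 were higher in both KDM5_KD libraries, as were 35.1% of all transcripts tested. The 11 include FSHR and PTX3, which were below 1 FPKM in every library and were not tested. In all, 3 of 14 were below 1 FPKM in every library. The summed level of the list was 45.3 to 60.8 FPKM in NC and 99.96 to 121 FPKM in KDM5_KD. FSHR was listed at 0 in both NC libraries and at 0.0216 and 0.0443 FPKM in KDM5_KD. CYP19A1 was at most 0.0602 FPKM in any library. CYP11A1 was at 8.41 and 3.79 FPKM (NC) and at 12.5 and 17.2 FPKM (KDM5_KD). STAR was at 8.40 and 5.15 FPKM in controls, compared with 9.22 and 10.2 FPKM in KDM5_KD. COL3A1, CYP19A1 and TNFAIP6 overlapped between the groups, and 0 of 14 were lower in both KDM5_KD libraries. In whole embryos, more cells of a type and more RNA per cell cannot be told apart.

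Proteasome genes were abundant and nearly level between the groups. Of the 45 transcripts, 44 had a mean of at least 1 FPKM and were tested, in one fit over 8970 transcripts with limma on log2(FPKM + 1). None passed a limma adjusted p of 0.05 (Benjamini-Hochberg), where 0.279% of all transcripts did (0.19% higher and 0.0892% lower). At an unadjusted limma p under 0.05 there were 5, PSME2, PSME1, PSMD11, PSMB2 and PSMD8, all higher in KDM5_KD. The number was 1 without either of the KDM5_KD libraries, 2 without NC replicate 2 and 3 with eBayes without trend. The 5 made up 11.4% of the members, against 17.5% of all transcripts (14.3% higher and 3.12% lower). One member, PSMD13, differed by 1 or more on the log2 scale, where 4.82% of all transcripts did. The median log2 fold change was 0.03 over the members and 0.09 over all transcripts tested. In absolute size the median was 0.09 for the members and 0.21 for all transcripts.

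The knockdown mean lay within 90 to 110% of the control mean for 26 of the 44 members (59.1%), compared with 33.6% of all transcripts. Both KDM5_KD libraries were above both NC libraries for 13 members, or 29.5% (35.1% of all transcripts), and below them for 7, or 15.9% (15.6% of all). For the other 24 the groups overlapped. The 95% interval of the log2 fold change lay within a 2-fold change in either direction for 42 members, the exceptions being PSMD13 and PSMD11, and within a 1.5-fold change for 32. The interval lay within a 2-fold change for 77.6% of all transcripts, and within a 1.5-fold change for 3131 of 8970. The members are expressed above most transcripts, with 32 of 44 in the highest 25% by mean FPKM. Among all transcripts at that level, the median log2 fold change was -0.02 and its median absolute size was 0.14. Their interval lay within a 2-fold change for 92.6%, near the 95.5% of members, and within a 1.5-fold change for 1552 of 2243.

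**Figure D1:**
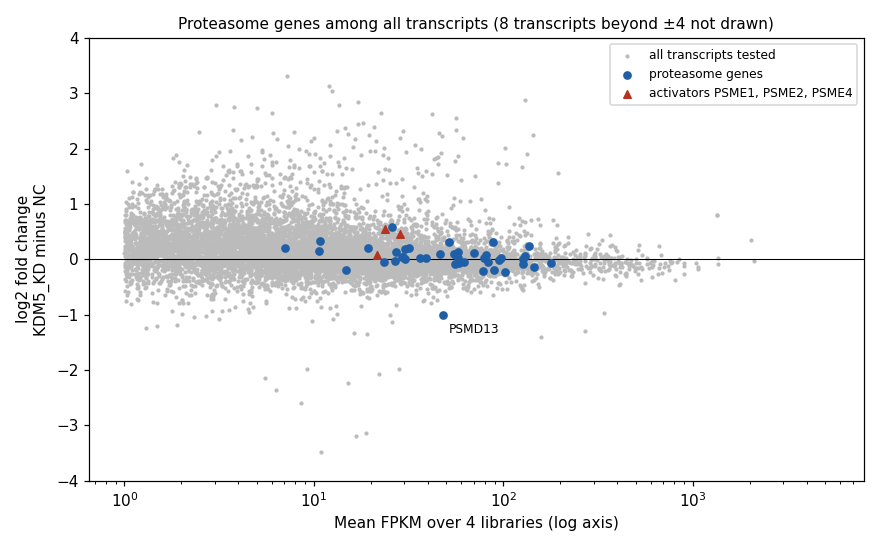
Log2 fold change (KDM5_KD minus NC, on log2(FPKM + 1)) against mean FPKM over the 4 libraries (log axis) for all 8970 transcripts tested, in grey, with 44 members in colour; 8 transcripts beyond 4 in either direction are not drawn. Members other than PSMD13, at -1.01, lie between -0.23 and 0.59.

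Levels within a particle were far from equal, although its subunits are assembled in fixed numbers. The median over members was 53.3 FPKM, and single members ranged from 7.01 FPKM for PSMD5 to 178 FPKM for PSMD9 as means over the 4 libraries. Both of these are assembly factors. The highest and lowest members differed 5.01-fold in the alpha ring, 3.27-fold among the tested genes of the beta ring, 6.54-fold among the base ATPases and 3.95-fold in the lid. No member moved by more than 2 ranks within the alpha ring, the beta ring or the base ATPases, and the 3 non-ATPase genes of the base kept the same order in all 4 libraries. In the lid, 1 of 8 genes held the same rank in all 4 libraries. The largest move, 6 ranks, was that of PSMD13, at 113 FPKM in NC replicate 2 and 25.6 FPKM in KDM5_KD replicate 1. Its high value in NC replicate 2 also lowered the rank of the lid genes below it in that library.

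**Figure D2:**
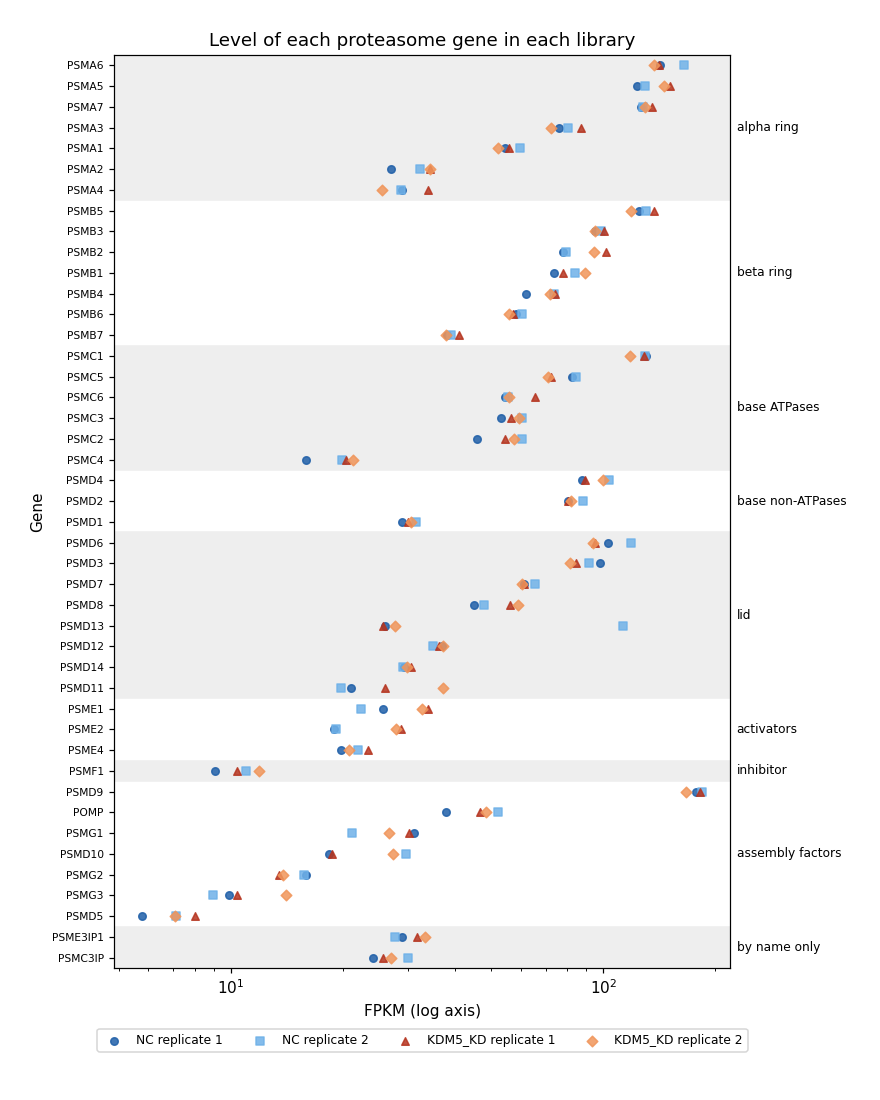
FPKM (log axis) of the 44 members with a mean of at least 1 FPKM in each of the 4 libraries, grouped by the part of the proteasome they belong to and sorted by mean level. The 4 symbols of a gene mostly lie close together, while PSMD13 is at 113 FPKM in NC replicate 2 and between 25.6 and 27.6 FPKM in the other libraries.

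In the alpha ring all 7 genes were in the highest 25% of expression. PSMA6 was the most abundant, at 142 and 164 FPKM in controls, compared with 142 and 137 FPKM in KDM5_KD. PSMA5 was at 123 and 129 FPKM in the control libraries, against 151 and 146 FPKM after knockdown. It was higher in both knockdown libraries, and its log2 fold change was the largest of the ring (0.23, SE 0.109, limma adjusted p of 0.338). PSMA2 followed, with 26.9 and 32.3 FPKM in NC and 34.3 and 34.2 FPKM in KDM5_KD (log2 fold change 0.21, SE 0.143, and 0.08 without NC replicate 1). PSMA4 had the lowest mean of the ring, at 28.8 and 28.6 FPKM in NC against 34.0 and 25.5 FPKM in KDM5_KD. The 2 control libraries lay between the 2 knockdown libraries for this gene. PSMA1, PSMA3 and PSMA7 had log2 fold changes between -0.08 and 0.06. Summed over the ring, the level was 578 and 623 FPKM in NC and 639 and 596 FPKM in KDM5_KD, so the groups overlapped.

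The catalytic genes of the beta ring had knockdown means of 100.4%, 95.2% and 102% of the control means for PSMB5, PSMB6 and PSMB7. PSMB5 was at 124 and 130 FPKM (NC) and at 137 and 119 FPKM (KDM5_KD), with a log2 fold change of 0.003 and a 95% interval from -0.30 to 0.30. PSMB6 was at 58.3 and 60.7 FPKM in controls, compared with 57.3 and 55.9 FPKM in KDM5_KD. The knockdown libraries were both lower, by 0.07 on the log2 scale in the group means (SE 0.115). PSMB7, the least abundant gene of the ring that was tested, was at 38.1 and 39.1 FPKM in the control libraries, against 40.9 and 37.8 FPKM after knockdown. Their levels stood in the order PSMB5, PSMB6, PSMB7 in every library.

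Of the structural beta genes, PSMB2 differed most. It was at 77.8 and 79.7 FPKM (NC) and at 102 and 94.4 FPKM (KDM5_KD). Its log2 fold change was 0.31 (SE 0.114), with an unadjusted limma p of 0.0324 and an adjusted p of 0.245. The groups did not overlap, and the difference was 0.26 to 0.37 when any 1 library was left out. PSMB4 was at 62.2 and 73.6 FPKM in controls, compared with 74.1 and 71.9 FPKM in KDM5_KD, where NC replicate 1 was the low library. PSMB1 and PSMB3 had log2 fold changes of 0.08 and 0.02. PSMB11, which encodes the catalytic subunit of the thymus-specific proteasome, was at most 0.115 FPKM in any library and was not tested.

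**Figure D3:**
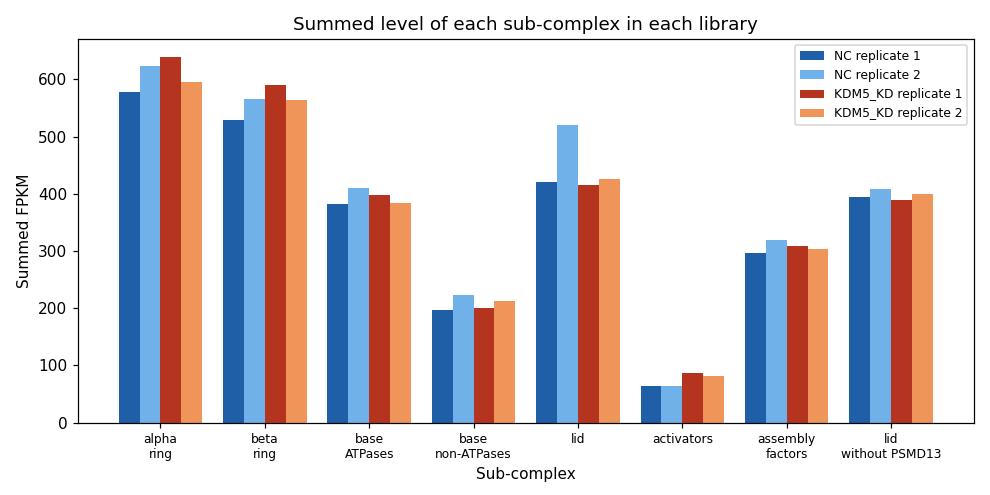
Summed FPKM of the genes of each sub-complex in each of the 4 libraries. The activators are at 64.4 and 63.5 FPKM in the control libraries, against 85.8 and 81.2 FPKM after knockdown, whereas the knockdown libraries of the other sub-complexes overlap the control libraries, and the high lid bar of NC replicate 2 is absent when PSMD13 is left out.

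Among the ATPase genes of the base, PSMC1 had the highest level, at 130 FPKM in both NC libraries and at 129 and 118 FPKM in KDM5_KD. PSMC5 was at 82.6 and 84.7 FPKM (NC) and at 72.6 and 71.1 FPKM (KDM5_KD). Both knockdown libraries were lower, and its replicates were close to each other (log2 fold change -0.22, SE 0.111, adjusted limma p of 0.378). PSMC4, the least abundant ATPase gene, was at 16.0 and 19.9 FPKM in controls, compared with 20.4 and 21.2 FPKM in KDM5_KD (log2 fold change 0.21, SE 0.162, and 0.06 without NC replicate 1 or 0.36 without NC replicate 2). PSMC2, PSMC3 and PSMC6 had log2 fold changes between 0.03 and 0.14. Of the base genes that encode no ATPase, PSMD4, a receptor for ubiquitin chains, was at 87.6 and 104 FPKM in the control libraries, against 89.1 and 99.6 FPKM after knockdown. The scaffold gene PSMD2 was at 80.3 and 88.2 FPKM (NC) and at 80.4 and 82.1 FPKM (KDM5_KD). PSMD1, the other large scaffold gene of the base, was at 28.8 and 31.4 FPKM in controls, compared with 30.0 and 30.5 FPKM in KDM5_KD. The groups overlapped for all 3, with log2 fold changes between -0.05 and 0.01.

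In the lid, PSMD13 differed most between libraries. It was at 25.9 and 113 FPKM in the control libraries, against 25.6 and 27.6 FPKM after knockdown. NC replicate 2 was thus 4.09 times as high as the next library, while the other 3 libraries lay within 1.08-fold of one another. The log2 fold change of -1.01 (SE 0.611, adjusted p of 0.451 in limma) rested on this library. It was 0.04 without NC replicate 2 and -2.05 without NC replicate 1, where its limma adjusted p was 0.00298. This was the one fit in which a member passed the threshold. Of the 8970 transcripts tested, 6 were at least 3 times as high in NC replicate 2 as in every other library, and PSMD13 was the only member among them. SIRT3, the next gene to PSMD13 in the RefSeq gene order, was at 2.68 and 1.40 FPKM (NC) and at 2.75 and 2.81 FPKM (KDM5_KD), and was lowest in NC replicate 2. RIC8A, 2 places away, was at 18.9 and 15.4 FPKM in controls, compared with 19.7 and 16.9 FPKM in KDM5_KD.

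PSMD11, whose raised level has been linked to high proteasome activity in human embryonic stem cells, had the largest log2 fold change of the members among those higher in KDM5_KD. It was at 21.0 and 19.8 FPKM in the control libraries, against 26.0 and 37.2 FPKM after knockdown. The groups did not overlap, but the knockdown replicates differed by more than the control replicates. The log2 fold change was 0.59 (SE 0.194, limma adjusted p of 0.214), and without KDM5_KD replicate 2, the library with the KDM6 entry, it was 0.34. PSMD8 was at 44.9 and 47.8 FPKM (NC) and at 56.3 and 59.0 FPKM (KDM5_KD) (log2 fold change 0.31, SE 0.119, adjusted limma p of 0.266).

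PSMD6, the lid gene with the highest level, went the other way, with 103 and 119 FPKM in NC and 95.1 and 93.8 FPKM in KDM5_KD (log2 fold change -0.23, SE 0.122, adjusted limma p of 0.396). PSMD3 was at 97.9 and 91.7 FPKM in controls, compared with 84.3 and 81.4 FPKM in KDM5_KD, also lower in both knockdown libraries. The deubiquitinase gene PSMD14 was among the steadiest members, at 29.2 and 29.0 FPKM in the control libraries, against 30.5 and 29.7 FPKM after knockdown. PSMD7 and PSMD12 had log2 fold changes of -0.05 and 0.03. Without PSMD13 the lid genes summed to 395 and 408 FPKM in NC and to 390 and 399 FPKM in KDM5_KD.

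**Figure D4:**
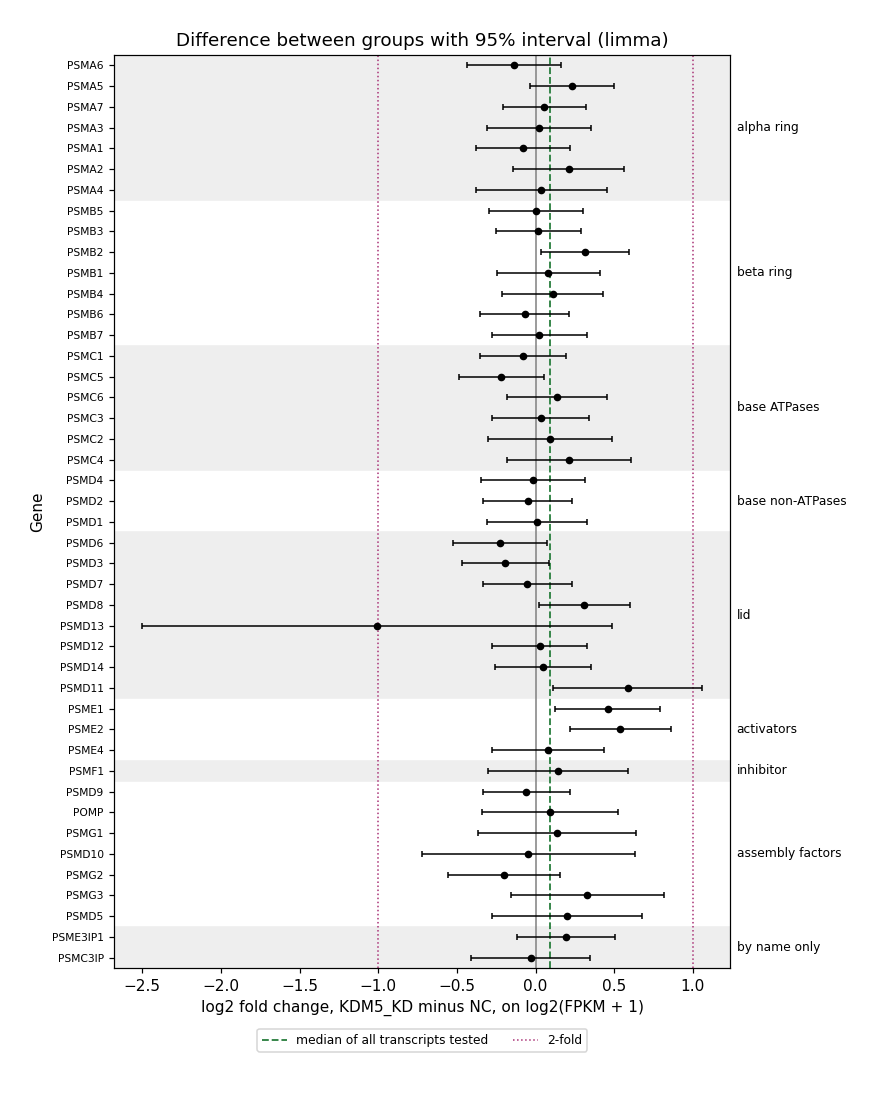
Log2 fold change of each member (points) with its 95% limma interval (bars), from 2 libraries per group and grouped by sub-complex; the dashed line is the median of all transcripts tested, 0.09, and the dotted lines mark 2-fold. The intervals of PSMB2, PSMD8, PSMD11, PSME1 and PSME2 lie above 0, before any adjustment for the number of transcripts.

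Among the activators, PSME1 and PSME2 were higher in both knockdown libraries and PSME4 was not. PSME1 and PSME2 encode the alternating subunits of a ring that opens the core particle without ATP and is inducible by interferon. PSME2 was at 19.0 and 19.2 FPKM (NC) and at 28.6 and 27.7 FPKM (KDM5_KD), which is 148% of the control mean. PSME1 was at 25.6 and 22.4 FPKM in controls, compared with 33.8 and 32.7 FPKM in KDM5_KD, which is 139% of the control mean. In both genes the gap between the groups exceeded the spread within either group. Their log2 fold changes were 0.54 (SE 0.132) and 0.46 (SE 0.137), with unadjusted limma p of 0.00625 and 0.0154. After adjustment over all transcripts the limma p-values were 0.144 and 0.191, so neither passed. Leaving out 1 library at a time gave 0.52 to 0.56 for PSME2 and 0.37 to 0.55 for PSME1. PSME4, which encodes a single-chain activator of nuclear proteasomes, was at 19.8 and 21.9 FPKM in the control libraries, against 23.4 and 20.8 FPKM after knockdown. Its groups overlapped (log2 fold change 0.08, SE 0.146).

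PSME1 and PSME2 lie 2 places apart in the RefSeq gene order. IRF9, which is 2 places beyond PSME2, encodes the DNA-binding subunit of an interferon-activated transcription factor and was singled out after its values were seen. It was at 4.57 and 3.35 FPKM (NC) and at 6.70 and 6.48 FPKM (KDM5_KD) (log2 fold change 0.63, SE 0.209, adjusted limma p of 0.218). Other genes within 4 places of PSME1 or PSME2 did not share a direction. FITM1, DCAF11 and REC8 overlapped between the groups. IPO4 was lower in both knockdown libraries, at 17.03 and 20.38 FPKM in controls, compared with 16.01 and 16.69 FPKM in KDM5_KD. PCK2 was higher in both, at 0.761 and 1.13 FPKM (NC) and at 1.41 and 1.54 FPKM (KDM5_KD). The interferon-inducible catalytic genes, which replace the constitutive ones in immunoproteasomes, were far less abundant than PSMB5, PSMB6 and PSMB7. PSMB8 was at 2.35 and 1.21 FPKM in controls, compared with 4.05 and 8.67 FPKM in KDM5_KD (log2 fold change 1.36, SE 0.372, adjusted limma p of 0.168). Its log2 fold change was 0.89 without KDM5_KD replicate 2. PSMB10 was at 0.798 and 0.297 FPKM in the control libraries, against 1.42 and 1.55 FPKM after knockdown, and PSMB9 overlapped between the groups, with 7.40 and 4.56 FPKM against 8.28 and 6.99 FPKM. The cumulus and granulosa marker list was higher in the same knockdown libraries as PSME1, PSME2, PSMB8 and PSMB10, with the sums given above, and its part in these values was not tested.

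**Figure D5:**
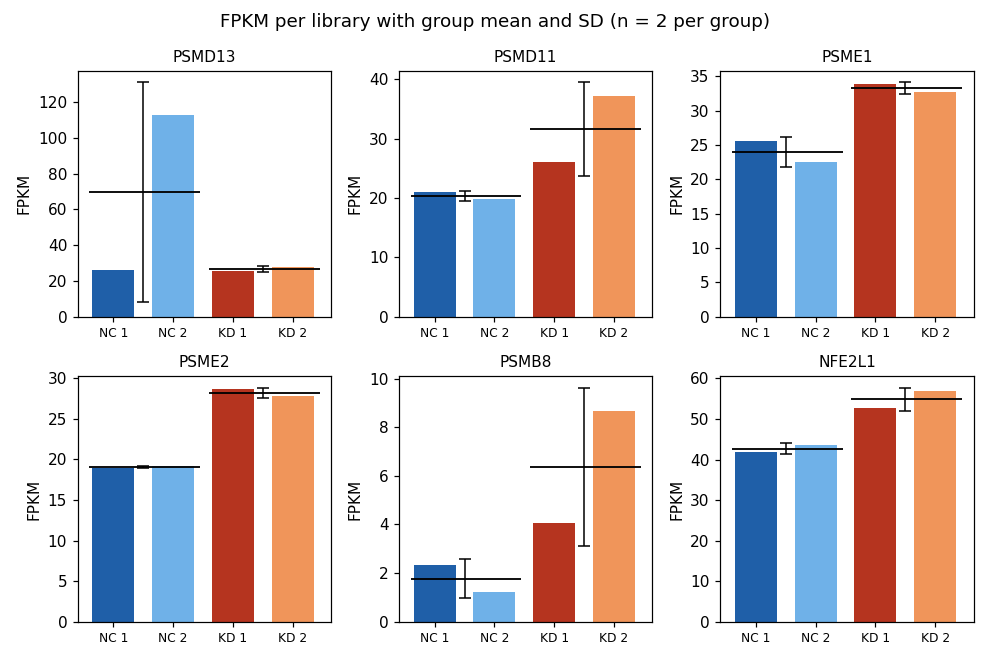
FPKM in each library (bars, starting at 0) with the group mean (horizontal line) and SD (error bar, n = 2 per group) for 4 members, for PSMB8 and for NFE2L1. PSMD13 is high in NC replicate 2 alone, whereas PSMD11, PSME1, PSME2, PSMB8 and NFE2L1 are higher in both KDM5_KD libraries than in either NC library.

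PSMF1, which encodes an inhibitor of the core particle in vitro, was at 9.05 and 11.0 FPKM (NC) and at 10.4 and 11.9 FPKM (KDM5_KD). The groups overlapped (log2 fold change 0.14, SE 0.182), and the log2 fold change was 0.01 without NC replicate 1, 0.27 without NC replicate 2 and 0.05 without KDM5_KD replicate 2. The assembly factors guide subunits into the rings or the base and are not part of the finished particle. PSMD9, a chaperone of the base, had the highest level of all members, at 178 and 185 FPKM in controls, compared with 182 and 166 FPKM in KDM5_KD. The other base chaperones were less abundant: PSMD10 was at 18.3 and 29.6 FPKM in the control libraries, against 18.7 and 27.2 FPKM after knockdown, and PSMD5 was at 5.79 and 7.15 FPKM (NC) and at 8.03 and 7.09 FPKM (KDM5_KD). For PSMD10 the replicates of each group differed far more than the groups did.

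POMP, which is needed to complete the beta rings, was at 37.7 and 52.3 FPKM in controls, compared with 46.7 and 48.3 FPKM in KDM5_KD, so the knockdown libraries lay between the control libraries. PSMG1 and PSMG2 encode partners of one chaperone of the alpha ring. PSMG1 was at 31.0 and 21.1 FPKM in the control libraries, against 30.0 and 26.6 FPKM after knockdown, again between the controls. PSMG2 was at 15.9 and 15.7 FPKM (NC) and at 13.4 and 13.9 FPKM (KDM5_KD), lower in both knockdown libraries (log2 fold change -0.20, SE 0.146, adjusted limma p of 0.532). PSMG3 was at 9.91 and 8.95 FPKM in controls, compared with 10.4 and 14.0 FPKM in KDM5_KD, and KDM5_KD replicate 2 was the high library. Its log2 fold change was 0.33 (SE 0.198, limma adjusted p of 0.446), and 0.13 without that library. Of the 7 assembly genes, 1 was higher and 1 lower in both knockdown libraries with no overlap, where 35.1% and 15.6% of all transcripts were.

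Of the genes that are members by name only, PSMC3IP overlapped between the groups. PSME3IP1 was higher in both knockdown libraries, as were 35.1% of all transcripts tested, at 115% of the control mean. PSMC3IP, which acts in meiotic recombination, was at 24.2 and 30.0 FPKM in the control libraries, against 25.7 and 27.0 FPKM after knockdown. PSME3IP1 was at 28.9 and 27.6 FPKM (NC) and at 31.7 and 33.2 FPKM (KDM5_KD) (log2 fold change 0.19, SE 0.127).

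The direction of small differences depended on the control library. NC replicate 2 had the higher value of the 2 controls for 33 of the 44 members (75%), against 44.1% of all transcripts, and for all 7 tested genes of the beta ring. Accordingly, 32 members were higher in the knockdown when NC replicate 1 was the only control, and 20 when NC replicate 2 was. With both controls the number was 29. It was 14 with median-ratio scaling, 14 with a common library sum and 20 after quantile normalization, so no direction can be given for the members as a whole. The difference was smaller than the gap between the 2 control libraries for 25 members (56.8%), against 49.4% of all transcripts.

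Factors that control or assist the proteasome were taken from a list of 31 genes that are no members. Of these, DDI2 and ECPAS were not analysed here, DDI1 was below 1 FPKM, and the other 28 were tested. None passed a limma adjusted p of 0.05, where 0.279% of all transcripts did, and 3 (10.7%) had an unadjusted limma p under 0.05, against 17.5% of all. These 3 were PSMB8, PSMB10 and NFE2L1, all higher in KDM5_KD. PSMB10 was below 1 FPKM in both control libraries. Its mean of 1.02 FPKM reached the filter of 1 FPKM only through the KDM5_KD libraries. The median log2 fold change of the list was 0.07. NFE2L1, which encodes the transcription factor that raises proteasome gene expression when proteasome activity is short, was named after its values were seen. It was at 41.8 and 43.6 FPKM in controls, compared with 52.8 and 56.9 FPKM in KDM5_KD (log2 fold change 0.35, SE 0.121, adjusted limma p of 0.226). The related gene NFE2L2 overlapped between the groups, at 5.36 and 6.42 FPKM against 6.39 and 7.29 FPKM. UBQLN4, a shuttle that brings ubiquitinated proteins to the proteasome, was at 2.51 and 1.86 FPKM in the control libraries, against 3.32 and 3.61 FPKM after knockdown (log2 fold change 0.49, SE 0.212, adjusted limma p of 0.308).

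Subunits without the PSM prefix were on this list as well. ADRM1, a ubiquitin receptor of the base, was at 125 and 101 FPKM (NC) and at 90.8 and 95.3 FPKM (KDM5_KD). SEM1, a small lid subunit, was at 213 and 234 FPKM in controls, compared with 225 and 168 FPKM in KDM5_KD. ADRM1 was lower in both knockdown libraries (limma adjusted p of 0.390), and SEM1 overlapped. AKIRIN2, which is needed for import of proteasomes into the nucleus, was at 238 and 187 FPKM in the control libraries, against 222 and 208 FPKM after knockdown, and VCP, the segregase that extracts substrates, was at 110 and 104 FPKM against 113 and 98.5 FPKM.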

How the data were processed

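Groups and replicate numbers came from the sample titles. The deposited table holds FPKM for 14517 RefSeq accessions in 4 library columns. The submitters' processing notes name Trimmomatic, HISAT2, featureCounts and Cufflinks, without roles or versions, and the genome build is not given in the sources used here. Symbols came from a RefSeq gene table (ARS-UCD2.0) matched on accession, with 14295 matches. Near-identical copies or overlapping genes may divide reads, and strand-specific counting is not stated.

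Transcripts with a mean of at least 1 FPKM (8970) were fitted as log2(FPKM + 1) in R 4.3.3 using limma 3.58.1 (lmFit, eBayes with trend, two-sided, Benjamini-Hochberg over all, threshold 0.05). The pseudocount of 1 understates changes of low transcripts. Members, lists and rules were chosen with earlier results of these data known. Members given in every library were those with an adjusted p under 0.05 or a log2 fold change of at least 1 in size, the highest, the lowest and the 2 most different of each sub-complex, the catalytic genes, activators, inhibitor and assembly factors, and the 3 most different of the pathway list. PSMD3, PSMD8, PSMD14, NFE2L1, NFE2L2, ADRM1, SEM1, AKIRIN2, VCP, PSMB9, IRF9, SIRT3 and RIC8A were added after their values were seen. So were FITM1, DCAF11, PCK2, IPO4, REC8, CYP11A1 and STAR.

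The fit was tested on simulated data: in 3 tables of 8970 transcripts with 200 changed, 89.4% of changes of 2 (log2) and 31.6% of changes of 1 were called, and 5.81% of calls were false. The tables were drawn from the model of the fit itself, with independent normal noise. They hold no outlying single library, shared replicate deviation or scaling difference, so these shares do not cover such cases.

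Alternatives were a pseudocount of 0.1, no filter (rows above 0), a mean of at least 5 FPKM, 3 scalings, eBayes without trend or robust, the replicate block, each library left out, no microRNA rows, and rows summed by symbol.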

Additional observations from a re-analysis of the deposited data

How the results depend on the processing

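No member passed in any of the 11 alternatives that kept all libraries. Without NC replicate 1 there was 1, PSMD13, and the range over the 4 left-out libraries was 0 to 1. No gene of the pathway list passed in any of the 15 alternatives. With 1 library left out, the lone sample of a group is assumed to vary like the other group. Over all transcripts, 17 were higher and 8 lower. The numbers were 2 and 1 without a filter, and 8 and 4 with the replicate block. With a mean of at least 5 FPKM 11 were higher, with a common sum 7, with untrended eBayes 6 and with robust eBayes 37. Leaving out 1 library gave 3 to 323 higher and 3 to 17 lower; both highest counts were without NC replicate 1. Same-numbered libraries deviated together (Pearson r of 0.229 across transcripts), but the labels do not say what a number shares. The replicate block changed no member's call, and KDM5A lost the threshold with it (limma adjusted p of 0.0591), without a filter (0.167) and with untrended eBayes (0.0605), at -1.35 each time, and in 3 of the 4 fits with 1 library left out (0.0625 to 0.232).

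The median of the members, 0.03, was -0.076 with median-ratio scaling, -0.081 with a common sum, -0.011 after quantile normalization and -0.012 to 0.086 with 1 library left out (lowest without NC replicate 1). These scalings and quantile normalization shifted the median of all transcripts by -0.10, -0.10 and -0.14. Members minus all was -0.06, 0.034 after quantile normalization and -0.10 to -0.0092 with 1 library left out. The 5 members at an unadjusted limma p under 0.05 were 6 with median-ratio scaling, 4 with the other scalings and 3 with untrended eBayes. The pathway median, 0.07, was -0.041, -0.027 and -0.046 with median-ratio scaling, quantile normalization and a common sum. Median-ratio scaling moved the members' median level in KDM5_KD from 55.1 to 53.0 FPKM, and leaving out 1 library gave 54.1 to 55.2 FPKM.

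Signs of small differences changed with scaling. With median-ratio scaling POMP was at -0.015, PSMA4 at -0.073, PSMB4 at -0.0023, PSMB5 at -0.11, PSMB7 at -0.085, PSMD1 at -0.10, PSMD14 at -0.061 and PSME4 at -0.029. With a common sum they were at -0.019, -0.079, -0.0063, -0.11, -0.090, -0.11, -0.067 and -0.034. After quantile normalization PSMA4 was at -0.029, PSMB5 at -0.011, PSMB7 at -0.021, PSMD1 at -0.061, PSMD14 at -0.028, PSMD5 at -0.018, PSME4 at -0.0098 and PSMF1 at -0.035. The causes were not tested. Leaving out 1 library also changed signs: POMP ranged from -0.14 to 0.32, PSMA4 from -0.17 to 0.24, PSMB4 from -0.011 to 0.23, PSMB5 from -0.10 to 0.11, PSMB7 from -0.031 to 0.080, PSMC3IP from -0.18 to 0.12, PSMD1 from -0.052 to 0.070, PSMD10 from -0.38 to 0.29, PSMD13 from -2.05 to 0.036, PSMD2 from -0.12 to 0.016, PSMD4 from -0.14 to 0.10, PSMD9 from -0.12 to 0.0040, PSME4 from -0.0013 to 0.16 and PSMG1 from -0.13 to 0.41. Others kept their sign but moved by over 1.5 times. PSMA2 ranged from 0.082 to 0.34, PSMC4 from 0.063 to 0.36, PSMF1 from 0.012 to 0.27 and PSMD5 from 0.068 to 0.33. Each of these was lowest without NC replicate 1. PSMA6 ranged from -0.24 to -0.030, PSMD6 from -0.33 to -0.13 and ADRM1 from -0.42 to -0.11. PSMB8 ranged from 0.89 to 1.83, PSMD11 from 0.34 to 0.84 and PSMG3 from 0.13 to 0.53 (each lowest without KDM5_KD replicate 2). PSMC1 ranged from -0.14 to -0.017, PSMB6 from -0.098 to -0.042, PSMD14 from 0.029 to 0.064 and PSMB10 from 0.47 to 0.94. PSME1, PSME2, PSMD11 and PSMB2 kept their direction in all 15 alternatives, with limma adjusted p from 0.131 to 0.784. Depth in reads is unknown, so no detection limit is given.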
